A study of Canis lupus familiaris with 2 samples.

Results

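The miR-10, miR-196 and miR-615 miRNAs are transcribed from within the HOX gene clusters, the groups of homeobox genes that pattern the body axis. They were taken here as every dog miRNA spot named miR-10, miR-196 or miR-615, letters and arms aside, which gave 5 of the 291 dog miRNAs on the chip, cfa-miR-10a, cfa-miR-10b, cfa-miR-196a, cfa-miR-196b and cfa-miR-615. Each had 1 spot on each array. Serum was taken at 2 months of age from male dogs of a colony kept for canine X-linked muscular dystrophy (CXMD_J), in which loss of dystrophin models Duchenne muscular dystrophy. Serum of 3 normal dogs was mixed into 1 pool and serum of 3 affected, dystrophic dogs into another, and the total RNA of each pool was labeled with Cy5 and hybridized to 1 array. Each condition is therefore 1 array, no test between the conditions was possible, and the ratios below describe these 2 pools.

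HOX genes and the miRNAs between them are ancient neighbors and are often active in the same regions of the embryo. miRNAs of the miR-10 and miR-196 families pair with mRNAs of HOX genes themselves, miR-10b with HOXD10 and miR-196 with HOXB8 being well-known examples, and so act on the clusters that encode them. miR-10a and miR-10b have nearly the same mature sequence and the same seed, the stretch that a miRNA uses to find its targets, and this is also true of miR-196a and miR-196b. miR-615 lies in an intron of HOXC5 and has another seed. A serum level does not name the tissue that released the RNA, and fewer releasing cells and less RNA per cell cannot be told apart in it.

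By gene name, the 5 spots matched 6 miRNA genes in RefSeq (assembly UU_Cfam_GSD_1.0), spread over all 4 HOX clusters. MIR10A lay inside HOXB3 between HOXB4 and HOXB5. MIR10B lay between HOXD8 and HOXD3, and MIR196B between HOXA9 and HOXA10. miR-196a has 2 genes, MIR196A-1 beside HOXB9 and MIR196A-2 beside HOXC10, and its spot reads the RNA of both. MIR615 lay inside HOXC5, which the annotation overlaps with HOXC4. Spots of near-identical family members can share labeled RNA, so the part of each in a signal is uncertain.

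The scanner reading of a spot is its median brightness. The blank level of an array was the mean of its blank spots once 5% had been trimmed from both ends. It came to 118 for normal and 116 for dystrophic serum and was subtracted from each reading. A miRNA was taken as detected above the blank level plus 2 SD of the trimmed blank spots (3.94 and 4.12 units). The limits were thus 126 and 124, respectively. They were also passed by 65.6% and 84.4% of negative-control spots and 26.5% and 23.8% of spots named as having no probe. Of the dog miRNA spots 54.6% and 64.9% passed, so detection alone does not show that an RNA was present. The net signals were scaled so that the detected dog miRNAs of each array had a median of 25, giving normalized signals. Noise is given as the SD expected for a single spot, combined from the SD of all blank spots (7.27 and 7.19 units) and the variation of 7.24% between 8 spots of the same bright control probe. It leaves out differences between dogs, extractions and arrays. Spots named as having no probe spread more widely (SD 11.2 and 12.7 units), as did negative-control spots (12.2 and 9.05 units). Noise intervals based on these spreads would be wider and were not computed.

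The 5 miRNAs fell into a bright one, a moderate one and 3 near the background. The spot of miR-615 read 606 in normal and 752 in dystrophic serum. That of miR-10b read 143 in normal and 180 in dystrophic serum. The spot of miR-10a read 128 on both arrays. The spot of miR-196a read 117 and 125, and that of miR-196b 116 and 123. Only miR-615 and miR-10b thus stood clear of the limit on both arrays, miR-10a lay just above it, and the miR-196 spots lay at the blank level in normal serum.

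**Figure D1:**
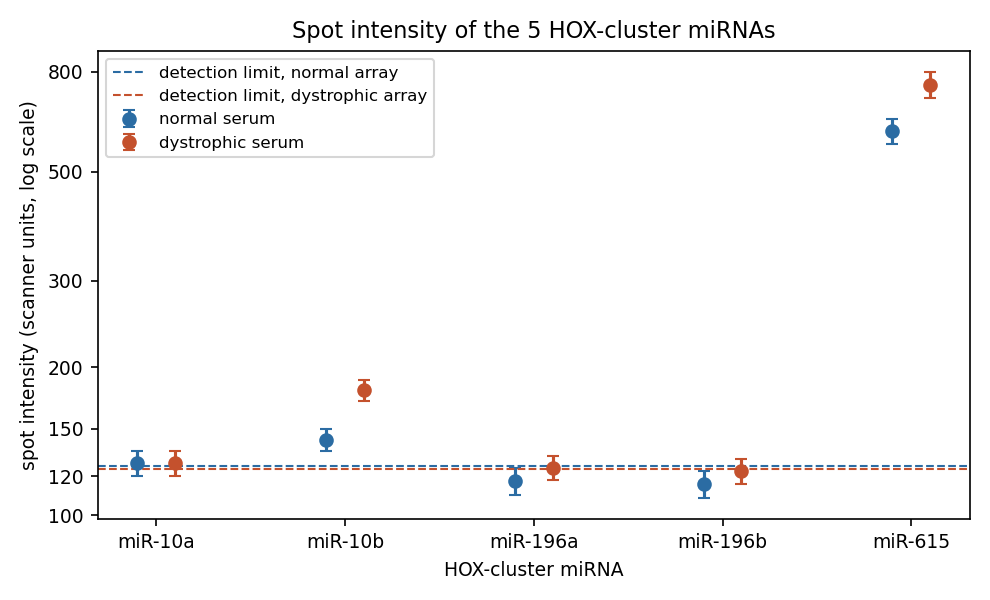
Spot intensity (scanner units, log axis, background not subtracted) of the 5 HOX-cluster miRNAs in normal serum (blue) and dystrophic serum (orange), 1 spot on 1 array each. Bars are 1 noise SD of a single spot and dashed lines are the detection limits of 126 and 124; miR-615 lies far above the limits, miR-10b above them on both arrays, miR-10a within 1 noise SD of them, and the miR-196 spots below the limit in normal serum and within 1 noise SD of it in dystrophic serum.

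miR-10a, miR-10b and miR-615, 3 of the 5, were detected in both sera, and 48.8% of all 291 dog miRNAs were. miR-196a was detected in dystrophic serum alone, as were 15.8% of all. miR-196b was detected in neither serum, as were 29.6% of all. None of the 5 was detected in normal serum alone, a pattern that 5.84% of the dog miRNAs showed. These counts of 5 members lie near those of the whole chip.

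miR-10b, which is known for its link to tumor cell invasion, had the highest dystrophic over normal ratio of the 3 members detected in both sera. Its normalized signal was 25.5 ± 7.78 (noise SD, 1 array) in normal and 52.7 ± 7.06 in dystrophic serum, so that the bars of 1 SD did not overlap. The dystrophic over normal ratio was 2.06, a log2 difference of 1.05. Its 95% noise interval, based on blank spots, ran from 1.18 to 5.24, above 1 but on both sides of 2. The wider spread of no-probe or negative-control spots would widen it. Of the 142 dog miRNAs detected in both sera, 13.4% had a ratio above 2, and miR-10b was 1 of the 3 HOX-cluster miRNAs detected in both. A ratio above 1 was found for 58.5% of all and a noise interval wholly above 1 for 18.3%.

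In the order of ratios miR-10b ranked 19 of 142, the last one above the limit of 2. miR-30d stood just before it with 2.07 and miR-299 just after it with 1.99. These neighbors differ from miR-10b by far less than its noise, and the limit does not separate them.

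The spot of miR-10b was brighter than most spots that carry no dog miRNA. In normal serum at least this brightness was reached by 21 of the 1408 blank spots (1.49%), 8 of the 181 unprobed spots, which the files name as having no probe, and 6 of the 32 negative-control spots. In dystrophic serum it was reached by 2 blank spots, 2 unprobed spots and no negative-control spot. The net signal was 3.38 times the SD of all blank spots in normal serum and 8.86 times in dystrophic serum. In normal serum the reading was therefore close to the upper end of the background spots, and in dystrophic serum it was clear of nearly all of them.

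Blank spots around miR-10b were also brighter. In its block of the array the 44 blank spots had a trimmed mean 3.10 units above that of the whole array in normal serum and 8.78 units above it in dystrophic serum. Taking the blank level of each block in place of that of the array gave a miR-10b ratio of 2.24. Before scaling the ratio was 2.56 with the block level and 2.60 with the array level. The scaling also changed, and the median ratio of all miRNAs detected in both sera went from 1.09 to 1.17. The local background that the scanner recorded around its spot was 105 and 156, compared with medians of 92.8 and 99.7 around the dog miRNA spots. The reading minus this local background was 38.0 in normal and 23.2 in dystrophic serum, that is, lower in dystrophic serum, and blank spots had medians of 40.8 and 34.6. With local subtraction miR-10b was thus not above the blank spots on either array. Across kinds of spots the local value rose with brightness, from a median of 77.4 around blank spots to 19899 around spike controls in normal serum. The area it covers is not stated. It may hold signal of the spot, which was not tested. Between the arrays it rose from 105 to 156 for miR-10b, whose reading rose from 143 to 180. For miR-615 it was 574 and 585, while the reading rose from 606 to 752.

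miR-10a, the close relative of miR-10b in the HOXB cluster, showed no such difference. Its normalized signal was 9.97 ± 7.59 in normal and 9.73 ± 5.99 in dystrophic serum, and these overlapped almost fully. The ratio was 0.976. The noise was so large beside the signal that no 95% interval could be closed on either side, and a difference of several fold could not have been detected. On the normal array 7.17% of the blank spots and 65.6% of the negative-control spots were at least as bright as miR-10a, and on the dystrophic array 4.83% and 78.1%.

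The ratio of miR-10b was 2.12 times that of miR-10a. An error propagated on the log scale gave a 95% noise interval from 0.279 to 16.1. With so dim a miR-10a, whose own interval could not be closed, these ends are a rough approximation and not firm bounds. These arrays therefore do not show that the pair differ. Most of this width came from miR-10a, whose net signal of 9.59 units in normal serum was 1.32 times the SD of the blank spots.

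**Figure D2:**
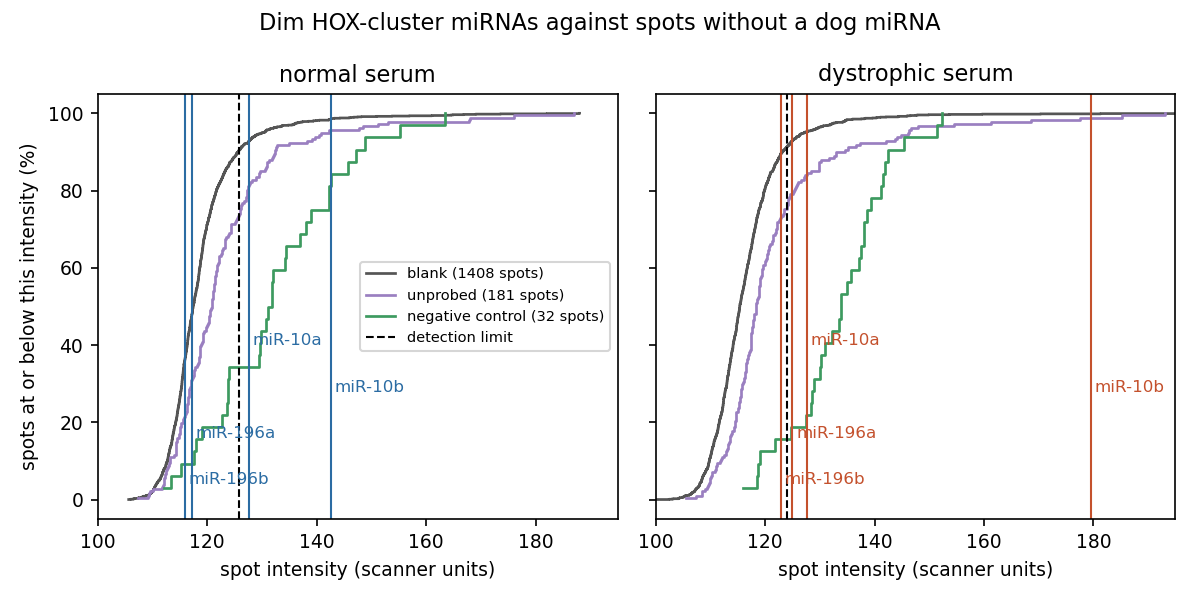
Cumulative share (%) of blank spots (1408), unprobed spots (181) and negative-control spots (32) at or below each spot intensity (scanner units), on the normal array (left) and the dystrophic array (right), with vertical lines at the 4 dimmer HOX-cluster miRNAs and a dashed line at the detection limit. miR-10b moves from 143 to 180, past nearly all background spots, whereas miR-10a stays at 128 and both miR-196 spots move from the middle to the upper part of the blank distribution.

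miR-615, encoded in HOXC5, was the bright member. Its spot ranked 3 of 291 in normal and 5 of 291 in dystrophic serum, although brightness also depends on the probe and does not order amounts. Its normalized signal was 507 ± 37.5 in normal and 526 ± 38.5 in dystrophic serum. The ratio was 1.04 with a 95% noise interval from 0.845 to 1.27, which holds 1. This depends on the scaling. Without scaling the ratio was 1.31 with an interval from 1.06 to 1.60, wholly above 1, and with quantile normalization it was 0.364. No blank, negative-control or unprobed spot reached its brightness on either array. It made up 3.89% of the summed net signal of the detected dog miRNAs in normal serum and 2.89% in dystrophic serum. This share fell although the net signal of miR-615 rose from 488 to 636 units, since the sum rose more, from 12528 to 21991 units. That sum holds the spots of miR-133a, miR-133b and miR-133c. They read 132, 145 and 131 in normal serum and 2455, 3049 and 2652 in dystrophic serum.

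The local background recorded around the spot of miR-615 was 574 and 585. Such values, as said for miR-10b, rose with brightness across kinds of spots. The reading minus the local background was 31.2 in normal and 167 in dystrophic serum. With local subtraction, which may remove signal of the spot, miR-615 did not pass the limit on the normal array.

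The ratio of miR-10b was 1.99 times that of miR-615, and this number is unaffected by a factor applied to a whole array. Its 95% noise interval ran from 1.004 to 3.94, so that its lower end all but touched 1. It rests on an error propagated on the log scale, whereas the intervals of single ratios used Fieller's method. Of the 3 pairs among the members detected in both sera this was the only one whose interval lay above 1. The other pairs include miR-10a, which was too dim for a firm interval, so this count does not set the pairs apart. The wider spread of no-probe or negative-control spots would widen the interval of miR-10b over miR-615 too. Without background subtraction the quotient was 1.01, since the blank level then stays in both readings and weighs most on the dimmer miR-10b.

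miR-196a and miR-196b, which act on HOXB8 mRNA, gave no ratio. miR-196a had a normalized signal of 7.58 ± 5.97 in dystrophic serum and a net reading of -0.77 units, just under the blank level, in normal serum. Its dystrophic signal was smaller than the lowest signal counted as detected in normal serum, 8.30, so no fold is given. On the dystrophic array 101 blank spots (7.17%) and 38 of the 181 unprobed spots matched or passed the brightness of miR-196a, as did 26 of the 32 negative-control spots (81.2%). Its detection there rested on a reading of 125 against a limit of 124. With the blank level of its block, its dystrophic net reading was 6.31 units. That was below the limit of 2 times the trimmed blank SD of 4.12 units.

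miR-196b had a net reading of -2.13 units, under the blank level, in normal serum and of 7.11 units in dystrophic serum. Both readings were below the limits. With the blank level of its block, the dystrophic net reading of miR-196b was 8.81 units, above the limit. The calls of miR-196a and miR-196b in dystrophic serum thus swapped with the blank level used. On the dystrophic array 147 blank spots (10.4%) were at least as bright, and on the normal array 64.2% were. Both miR-196 spots read higher against the blank level on the dystrophic array, miR-196a by 9.94 and miR-196b by 9.24 units, compared with an expected SD of 10.2 units for the difference of a pair of blank spots. A change of this size was not detectable with 1 spot on each array.

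The median ratio of the 3 members detected in both sera was 1.04, and that of all 142 dog miRNAs was 1.09. None of the 3 had a ratio of 0.5 or less, and 5.63% of the 142 did. None had a noise interval wholly below 1, and 9.15% of the 142 did. These medians and counts leave out both miR-196 spots, which have no ratio.

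**Figure D3:**
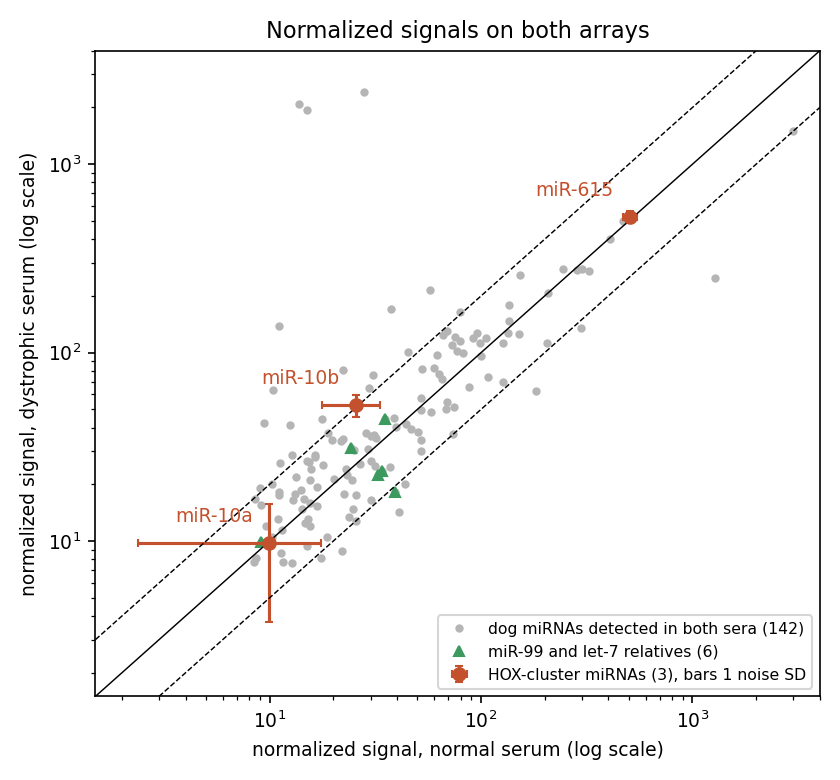
Normalized signals (log axes) in normal serum and dystrophic serum of the 142 dog miRNAs detected in both (gray), with the HOX-cluster miRNAs (orange, bars 1 noise SD) and their relatives in sequence (green triangles); lines mark ratios of 1, 2 and 0.5. miR-615 and miR-10a lie on the line of equal signal with ratios of 1.04 and 0.976, and miR-10b lies at the upper limit with 2.06.

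Relatives in sequence were examined beside the members. miR-99a, miR-99b and miR-100 resemble miR-10 near the 5′ end, and 2 of these 3 names had a spot. The normalized signal of miR-99a was 35.1 in the normal and 44.6 in the dystrophic pool. Its ratio was 1.27, and the noise interval reached from 0.763 to 2.41. The ratio of miR-99b was 1.29, with an interval from 0.639 to 3.64. Both were above 1 by less than noise, and neither passed 2.

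The let-7 family and miR-98 share a run of bases with the start of miR-196. Of their 8 spots 4 were detected in both sera, with a median ratio of 0.687. The ratio was 0.465 for let-7b, whose noise interval ran from 0.153 to 0.960, and it was the only one of the 4 at 0.5 or less. It was 1.09 for let-7e, 0.684 for let-7c and 0.691 for let-7a. Of these 4 ratios 3 were below 1, and the intervals of let-7a and let-7c included 1.

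The miRNAs nearest to each member over the log2 normalized signals of the 2 arrays were found by Euclidean distance among the 142. For miR-10b they were miR-30a (ratio 2.19, distance 0.37) and miR-99a (distance 0.52). For miR-615 they were miR-24 (ratio 1.07, distance 0.13) and miR-718 (ratio 0.981, distance 0.50). For miR-10a they were miR-660 (ratio 1.02) and let-7e (ratio 1.09). With 2 values for each miRNA this likeness describes brightness and ratio on these arrays alone.

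The ratios of all members depend on how the arrays were brought to a common level. The scaling multiplied the normal array by 1.04 and the dystrophic array by 0.827. Before it, the ratio of net signals was 2.60 for miR-10b, 1.31 for miR-615 and 1.23 for miR-10a. Of the 8 bright control probes, 7 had dystrophic over normal ratios from 0.854 to 1.06 before scaling and S-Probe6 had 2.22. Scaling on the spike controls gave 2.69 for miR-10b, whereas a scaling that used the 142 shared miRNAs gave 1.70. miR-10b had the highest ratio of the members under each processing that gave it a ratio. A factor for a whole array or a filter cannot change this order, and such processings left the quotient of miR-10b over miR-615 at 1.99. Over all processings the quotient ran from 1.01 without background subtraction to 4.40 with quantile normalization. The side of 1 on which miR-615 and miR-10a lay changed with the scaling.

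**Figure D4:**
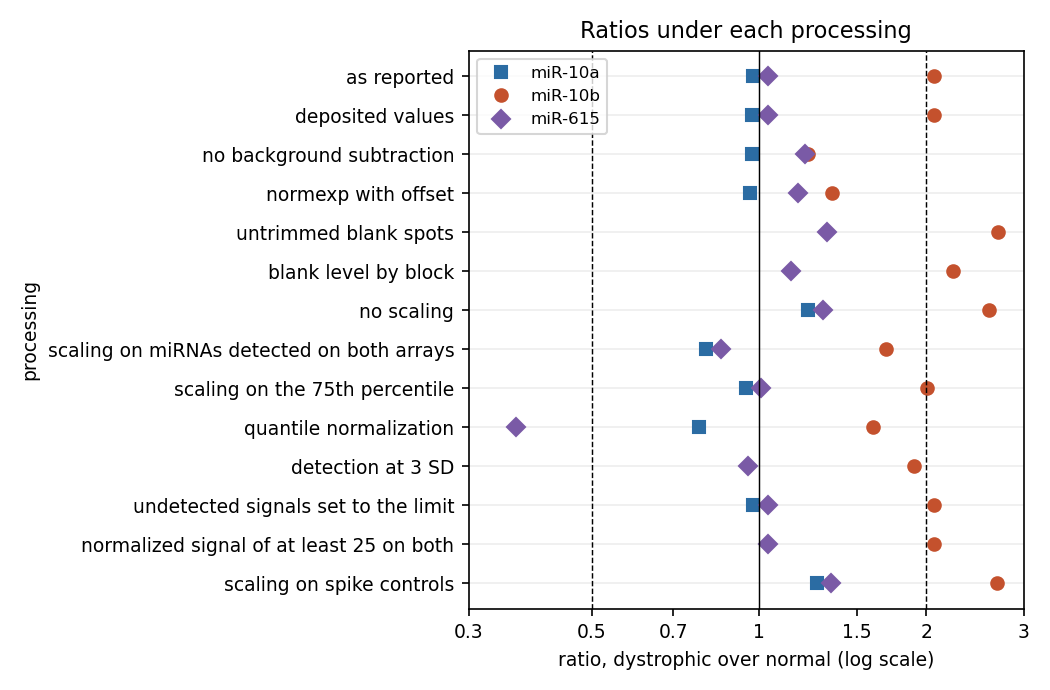
Dystrophic over normal ratio (log axis) of miR-10a, miR-10b and miR-615 under each processing that gave a ratio, with lines at 1, 2 and 0.5. miR-10b runs from 1.23 to 2.70 and is highest of the 3 wherever it has a ratio, an order that a whole-array factor or a filter cannot change. miR-615 lies between 0.853 and 1.35 apart from 0.364 with quantile normalization.

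As a check of the labels, 4 of 5 muscle miRNAs were detected in both sera, with noise intervals that began at 5.24 for miR-206 and between 54.6 and 71.6 for miR-133a, miR-133b and miR-133c. Their normal signals were dim, so that only these lower ends are given, and the remaining one, miR-1, only passed the limit in dystrophic serum. The red-cell miRNA miR-451 had a ratio of 0.196, miR-144 was detected in neither serum and miR-486 had no spot of that name. The white-cell and platelet miRNAs miR-223, miR-150 and miR-142 had ratios of 0.549, 0.743 and 2.24, and the liver miRNA miR-122 had 0.943. The part of differences in blood cell content in the ratios of the HOX-cluster miRNAs was not tested.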

How the data were processed

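Serum RNA of 1 pool per condition was measured on 1-color 3D-Gene 4 animal miRNA Oligo chips. The authors deposited the scanner output of both arrays, in which the intensity of each of 3200 spots is an unnormalized median brightness, and a table of globally normalized intensity values. The software was 3D-Gene Extraction, and its version and settings are not given in the sources used here. Samples were assigned from their phenotype labels.

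All values were recomputed from the scanner intensity: blank level subtracted (blank spots trimmed by 5% at each end, the number trimmed being rounded up), detection at 2 SD, spots marked unusable left out, median of detected dog miRNAs scaled to 25. All 159 and 188 values listed in the deposited table were within its rounding of 0.05. Noise intervals of ratios used Fieller's method, and those of quotients of ratios an error propagated on the log scale. Bright control probes had at least 8 spots and a net signal of at least 5 times the distance from blank level to limit on both arrays. No p-value was computed. The steps were tested on simulated data.

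The named miRNAs were all members, their relatives in sequence, the 2 nearest miRNAs of each member detected in both sera, and markers of muscle, blood cells and liver; miR-30d, miR-299 and S-Probe6 were named after their values were seen. The members, lists and limits were chosen with earlier results of these data known. The limits of above 2 and 0.5 or less follow the study. There were 12 alternatives written down beforehand and 2 added later, local background and spike controls. Mature sequences are not printed here. The RT-qPCR experiments of the study were not analysed here. RefSeq was used for names and neighbors alone. Python 3.11.15, numpy 2.4.6, pandas 2.3.3, matplotlib 3.10.9, R 4.3.3 and limma 3.58.1 (for normexp) were used.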

Additional observations from a re-analysis of the deposited data

How the results depend on the processing

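The ratio of miR-10b stayed above 1 under the 13 alternatives that gave it one, from 1.23 to 2.70 and within its noise interval, but above 2 under 8 of them. Those 8 include some that could not move it: the deposited values, undetected signals set to the limit, and a normalized signal of at least 25. The number of HOX-cluster miRNAs above 2-fold, 1 as reported, was 0 without background subtraction, 0 with normexp and an offset of 50, 0 with scaling on the 142 shared miRNAs, 0 with quantile normalization, 0 with detection at 3 SD and 0 with local background subtraction. A blank level left in both signals, or an offset added to them, draws ratios toward 1 by construction. Quantile normalization replaces each signal by the mean of both arrays at its rank. For miR-615, rank 3 in normal and rank 5 in dystrophic serum gave 1413 and 514. The other causes were not tested. The ratio of miR-615 left its noise interval without scaling (1.31), with untrimmed blank spots (1.33), with spike controls (1.35) and with quantile normalization (0.364). The last gave 1 member at 0.5-fold or less in place of 0. The ratio of miR-10a ran from 0.779 to 1.27. The 3 members detected in both sera became 0 with local background subtraction, chosen after seeing the data like the spike controls, and 2 with detection at 3 SD, untrimmed blank spots and blank levels by block, each without miR-10a. The median log2 ratio of all miRNAs with a ratio moved by 0.33 without scaling, -0.28 with scaling on the 142 shared miRNAs, -0.39 with quantile normalization and 0.38 with spike controls, and miR-10b moved with it.

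No paired analysis was possible because the series holds a single array for each pool; likewise, no replicate was left out. Their low signal over background limits miR-10a and both miR-196 spots.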
